A study of Mus musculus with 2 samples.

Results

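The kappa light chain variable (V) segments, the genes whose symbols begin with Igkv, were followed in polyadenylated RNA of mouse duodenum. A gene row belonged to the set when its identifier carried such a symbol in the GENCODE mouse annotation, which gave 103 of 43346 gene rows. Of these, 97 were annotated as V genes and 6 as V pseudogenes, and the number after Igkv placed them in 19 families. The annotation used for names lists 160 Igkv entries, and the other 57 (54 pseudogenes and 3 V genes) had no row and were not analysed here. The study holds 1 group of 2 libraries, replicate 1 and replicate 2, both from the duodenum of adult C57BL/6J mice aged 8 weeks. Male and female littermates were pooled, no treatment or altered allele is named, and the health state is given as unknown. The labels give both libraries the same donor entry and different tissue-sample entries, and number them as biological replicates 1 and 2, without saying which animals each pool held. Every p-value below compares the reads of these 2 libraries, whose spread may be technical in part, and not conditions.

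An antibody light chain gene is assembled in a developing B cell by joining 1 V segment to 1 joining (J) segment, and the transcript is then spliced to the kappa constant exon, Igkc. V segments that lie in the orientation of the J and constant parts join by deletion of the DNA between them, and those in the opposite orientation join by inversion. The V exon encodes most of the antigen-binding domain of the light chain, and its 3′ end, after a conserved cysteine, encodes the germline start of the third complementarity-determining loop. Plasma cells of the gut wall secrete immunoglobulin A in large amounts, and each clone of them carries a rearranged V segment that other clones can also use. V levels in tissue thus reflect which rearranged cells were present and how much light chain RNA each held. In whole tissue, more clones with a segment, more cells of a clone and more RNA per cell cannot be told apart.

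The 4 highest segments by mean level were Igkv6-23, Igkv4-59, Igkv4-57 and Igkv4-72. The last 300 bases of their second exons (all 298 for Igkv6-23), which hold the end of the leader and the V domain, are printed from the GENCODE M21 transcripts to show what the counted RNA looks like. Capitals mark the germline 3′ end from the codon of the last in-frame cysteine onward.
Igkv6-23 (GRCm38 chr6:70260409-70260706, minus strand): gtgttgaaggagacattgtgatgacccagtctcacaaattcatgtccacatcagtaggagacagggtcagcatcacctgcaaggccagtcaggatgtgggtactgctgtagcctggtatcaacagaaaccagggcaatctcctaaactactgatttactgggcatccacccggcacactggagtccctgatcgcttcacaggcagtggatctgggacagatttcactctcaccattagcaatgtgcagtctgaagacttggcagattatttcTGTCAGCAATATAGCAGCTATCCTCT
Igkv4-59 (GRCm38 chr6:69438218-69438517, minus strand): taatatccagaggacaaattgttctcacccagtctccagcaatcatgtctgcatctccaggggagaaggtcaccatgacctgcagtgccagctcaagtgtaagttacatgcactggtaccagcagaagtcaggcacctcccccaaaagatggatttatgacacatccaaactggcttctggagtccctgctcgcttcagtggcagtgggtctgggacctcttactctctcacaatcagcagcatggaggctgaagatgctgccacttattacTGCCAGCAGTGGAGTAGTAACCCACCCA
Igkv4-57 (GRCm38 chr6:69575975-69576274, minus strand): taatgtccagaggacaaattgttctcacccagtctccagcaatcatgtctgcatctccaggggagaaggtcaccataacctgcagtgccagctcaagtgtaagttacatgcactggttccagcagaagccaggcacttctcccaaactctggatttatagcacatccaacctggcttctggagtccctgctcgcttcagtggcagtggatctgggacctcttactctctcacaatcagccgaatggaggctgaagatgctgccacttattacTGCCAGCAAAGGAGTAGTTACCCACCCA
Igkv4-72 (GRCm38 chr6:69226854-69227153, minus strand): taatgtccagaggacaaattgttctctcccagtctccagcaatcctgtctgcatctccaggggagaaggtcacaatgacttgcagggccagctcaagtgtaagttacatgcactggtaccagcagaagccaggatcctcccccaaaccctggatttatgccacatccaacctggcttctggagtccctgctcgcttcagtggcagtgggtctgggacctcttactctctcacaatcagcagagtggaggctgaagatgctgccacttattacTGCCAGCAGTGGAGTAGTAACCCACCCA
Igkv4-59 and Igkv4-72 had the same 28-base 3′ end and 95.2% identity over the 352 aligned coding bases, with 17 differences. Igkv4-68, the fifth highest segment, ended in the same 28 bases. Igkv6-23 matched Igkv4-59 at 64.1% of 357 aligned positions. The row of Igkv4-57 was 350 bases long in the deposited tables, against 352 coding bases in the annotation printed here.

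The 3′ ends of further segments that the results turn on are set out next, with the cysteine codon in capitals. They comprise other leading members and those with some of the largest differences between the libraries. Igkv4-53, also among the leading 12 by mean TPM, is not listed because no such end was found for it.
Igkv4-70: TGCcatcagcggagtagttaccca
Igkv6-15: TGTcagcaatataacagctatcctct
Igkv6-17: TGTcagcaacattatagtactcctcc
Igkv10-96: TGCcaacagggtaatacgcttcctcc
Igkv3-12: TGTcagcacagtagggagcttcctcc
Igkv3-1: TGTcagcaaagtaggaaggttccttc
Igkv4-90: TGTcagcaaaggagtagttacccaccca
Igkv14-111: TGTctacagtatgatgagtttcctcc
Igkv1-99: TGCttccagagtaactatcttcctct
Igkv2-137: TGTatgcaacatctagaatatccttt
Igkv9-120: TGTctacaatatgctagttctcctcc
Such an end was sought only in coding sequences that begin with ATG. It was found for 81 members, and 58 of these ends were 26 bases long. The letters CCTCC closed 35 of the 81 ends, and 0 of the 18 ends of the Igkv4 family. The letters CCACCCA closed 7 of the 18 Igkv4 ends and no end of another family, read on the coding strand at the last bases of the exon. In the Igkv4 family 13 ends were 28 bases long.

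Kappa V RNA was abundant, with a summed level of 5810 TPM in replicate 1 and 5709 TPM in replicate 2 (mean 5759 ± 71.5, SD, n = 2). TPM is a transcript level per length, scaled so that every library has an equal total. These sums were 0.581% of all TPM in replicate 1 and 0.571% in replicate 2. The expected counts, which are read pairs shared out over genes by the authors' quantifier, summed to 37576 in replicate 1 and 30416 in replicate 2 after rounding each row. That was 0.0849% of gene counts in replicate 1 and 0.0680% in replicate 2, over short rows of 123 to 371 bases (median 347). After scaling by the trimmed mean of M-values (TMM), the summed count was 1.06-fold the size in replicate 1 that it was in replicate 2 (95% interval 1.04 to 1.08, counting error only).

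Igkc, the constant exon that all kappa transcripts share, had 7291 TPM in replicate 1 and 10458 TPM in replicate 2. Its scaled count in replicate 1 was 0.758 of that in replicate 2 (95% interval 0.747 to 0.768), a difference of less than 2-fold. The Igkv sum was 0.797 of the Igkc level in replicate 1 and 0.546 in replicate 2 in TPM. In expected counts the same ratio was 0.935 in replicate 1 and 0.669 in replicate 2. Length scaling entered these ratios: the median effective length of the Igkv rows, the number of start positions the quantifier allows a fragment, was 158.8 bases in replicate 1 and 133.7 bases in replicate 2. The J segments Igkj1 to Igkj5, of 36 to 43 bases, were listed at 0 in both libraries with an effective length of 0. No level can be read from those rows.

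Most segments were detected. A level of at least 1 TPM was reached by 71 members in replicate 1 and 70 in replicate 2, by 61 in both and by 80 in either. At least 10 TPM was reached by 48 members in replicate 1 and 43 in replicate 2, and at least 100 TPM by 13 members in each. At the low end, 13 members were at 0 counts in replicate 1 and in replicate 2. Of these, Igkv13-87 and Igkv2-95-2 had an effective length of 0 (no room for a fragment), so their 0 is no measurement. For the other 11, a count of 0 allows 3, or 0.0678 CPM (counts scaled to a common library size) in replicate 1 and 0.0671 CPM in replicate 2. Counts in replicate 1 only were seen for 9 members (1 to 76 counts), and in replicate 2 only for 7 members (2 to 175 counts). Among the 6 pseudogenes only Igkv11-106 had counts assigned, 0 in replicate 1 and 3.49 in replicate 2, where its level was 1.40 TPM. The bounds deposited with that level ran from 0.000187 to 4.26 TPM, so it was not clearly above 0. Igkv1-115 had 0 counts in both libraries.

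Few segments carried most of the RNA, and fewer in replicate 2. The highest member held 16.6% of the Igkv TPM in replicate 1 and 21.7% in replicate 2, the 5 highest 51.0% in replicate 1 and 63.4% in replicate 2, and the 10 highest 68.4% in replicate 1 and 75.2% in replicate 2. To reach 50% of the TPM took 5 members in replicate 1 and 3 in replicate 2, and to reach 90% took 28 members in replicate 1 and 21 in replicate 2. The effective number of segments, the exponential of the Shannon entropy of the shares, was 24.5 in replicate 1 and 16.9 in replicate 2 (mean 20.7 ± 5.43, SD, n = 2). No test of that difference is possible with 1 value per library.

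**Figure D1:**
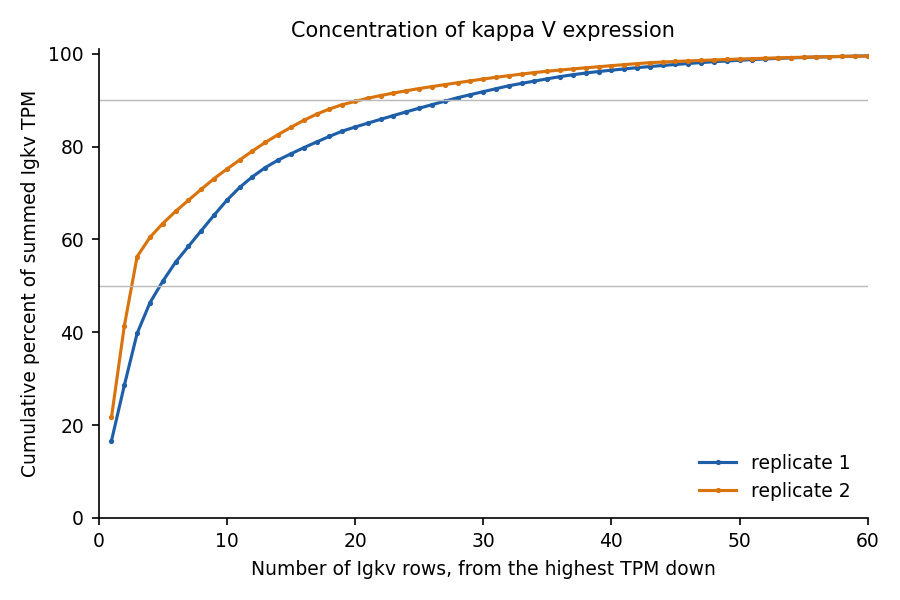
Cumulative percent of the summed Igkv TPM (y axis) against the number of rows counted from the highest down (x axis), 1 line per library, with grey lines at 50% and 90%. The line of replicate 2 lies above that of replicate 1, and 50% is reached with 5 rows in replicate 1 and 3 in replicate 2.

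Igkv6-23 and Igkv4-59 were the leading pair in both libraries, in opposite order. Igkv6-23 had 964 TPM in replicate 1 and 1122 TPM in replicate 2. Igkv4-59 had 693 TPM in replicate 1 against 1238 TPM in replicate 2, and its scaled count was 1.71-fold higher in replicate 2 (95% interval 1.65 to 1.77). Both differences were under 2-fold and were not called. A call here needed a Benjamini-Hochberg adjusted p under 0.05 in an exact binomial test over 15921 genes and a scaled ratio of at least 2-fold. By this rule 14.6% of all genes tested were higher in replicate 1 and 11.5% higher in replicate 2.

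Below that pair the libraries parted. Igkv4-57 had 187 TPM in replicate 1 and 855 TPM in replicate 2, 4.36-fold higher in replicate 2 by scaled counts (95% interval 4.09 to 4.64). Igkv4-72, its relative in the same family, went the other way, with 652 TPM in replicate 1 and 89.9 TPM in replicate 2. Its scaled count was 7.58-fold higher in replicate 1 (95% interval 6.91 to 8.34). Igkv4-68 had 383 TPM in replicate 1 against 95.9 TPM in replicate 2 and was 4.18-fold higher in replicate 1. So of the 3 segments with an identical 28-base end, Igkv4-59 was higher in replicate 2 without passing 2-fold, while Igkv4-68 and Igkv4-72 were called higher in replicate 1.

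Igkv3-1, the V segment nearest to Igkc, had 194 TPM in replicate 1 and 13.0 TPM in replicate 2. That was 15.5-fold higher in replicate 1 (95% interval 12.3 to 19.8; exact binomial test, adjusted p = 1.535e-262). Igkv6-17 had 238 TPM in replicate 1 against 85.8 TPM in replicate 2, and Igkv3-12 had 161 TPM in replicate 1 and 63.5 TPM in replicate 2. Both were called, at 2.91-fold and 2.63-fold. The remaining members of the leading 12 stayed under 2-fold. Igkv4-70 had 270 TPM in replicate 1 and 170 in replicate 2, and Igkv6-15 had 133 TPM in replicate 1 and 237 in replicate 2. Igkv10-96 had 196 TPM in replicate 1 and 137 in replicate 2, and Igkv4-53 had 198 TPM in replicate 1 and 134 in replicate 2. Of the leading 12, 5 were called higher in replicate 1, 1 higher in replicate 2 and 6 were not called, and together they held 73.5% of the Igkv TPM in replicate 1 and 74.3% in replicate 2. The lists of the 10 highest members in each library shared 6.

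**Figure D2:**
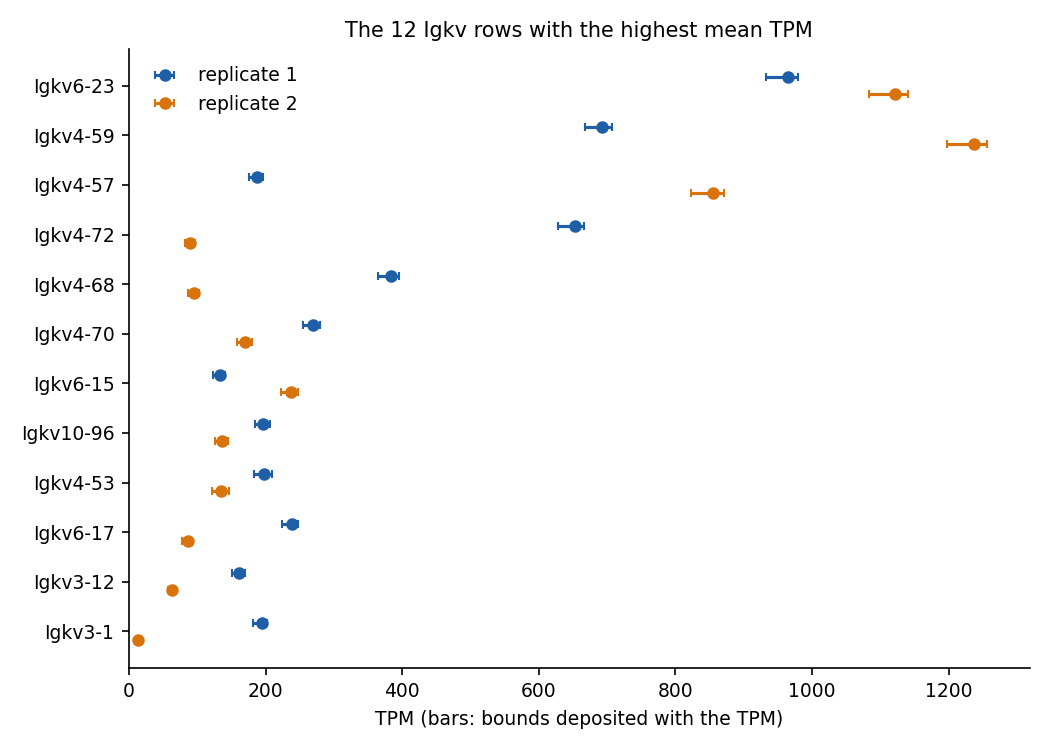
TPM (x axis) of the 12 Igkv rows with the highest mean TPM (y axis), with replicate 1 in blue above replicate 2 in orange and bars for the bounds deposited with each TPM. Igkv4-57 lies far higher in replicate 2 (187 TPM in replicate 1 against 855 in replicate 2), and Igkv4-72 in replicate 1 (652 TPM against 89.9 in replicate 2).

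Across the set, 69 of the 103 members had a mean count of at least 10 and were tested. Higher levels in replicate 1 were called for 31 (44.9% of those tested), against the 14.6% of all genes tested. Higher levels in replicate 2 were called for 15 (21.7%), against 11.5% of all genes. Calls in either direction came to 66.7% of tested members and 26.1% of all genes. Of the 23 that were not called, 15 missed the 2-fold limit and 8 the adjusted p. The median log2 ratio of replicate 1 over replicate 2, on TMM-scaled CPM + 0.5, was 0.63 for members and 0.04 for all genes, and the median size of the ratio without its sign was 1.09 for members and 0.47 for all genes. A chi-square test of homogeneity over the 69 members gave 14815 on 68 degrees of freedom, or 218 per degree, and the same quantity over all genes tested was 783 per degree. At a given ratio this quantity grows with the counts, and all genes included Ctrb1, with 899179 counts in replicate 1 and 1294 in replicate 2. The 2 values per degree therefore do not rank the members against all genes. Over the 80 members with at least 1 TPM in either library, levels as log2(TPM + 1) had a Pearson correlation of 0.69 between the libraries and a Spearman correlation of 0.66. Over 13084 genes chosen the same way the Pearson correlation was 0.90. These correlations are descriptions across genes of the same 2 libraries, and genes are not independent replicates.

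**Figure D3:**
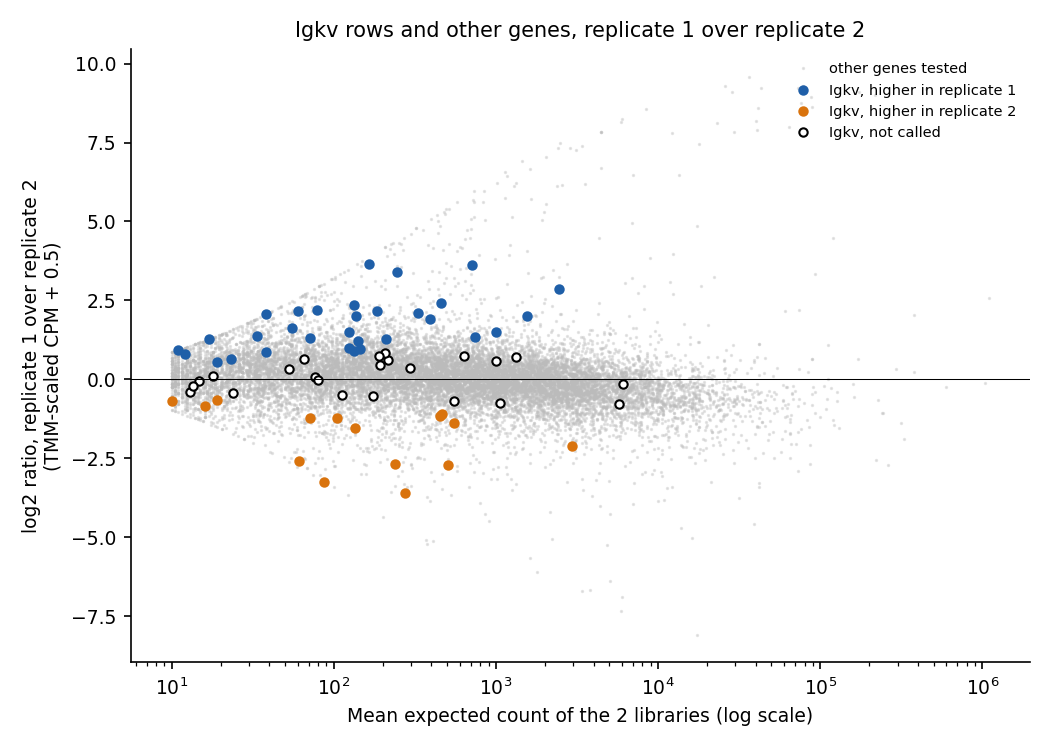
Log2 ratio of replicate 1 over replicate 2 (y axis, TMM-scaled CPM + 0.5) against the mean expected count (x axis, log scale), with other tested genes in grey and the 69 tested Igkv rows as circles. Of these circles, 31 were called higher in replicate 1, 15 higher in replicate 2 and 23 were not called.

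The largest calls by log2 ratio on CPM + 0.5 included segments with very few counts in 1 of the libraries. Igkv4-58 had 325 counts in replicate 1 against 3 in replicate 2, for a ratio of 92.9 with a 95% interval of 31.5 to 453. Igkv14-111 had 471 counts in replicate 1 and 20 in replicate 2 (20.2-fold, 12.9 to 33.4). Igkv3-5 had 115 TPM in replicate 1 and 19.6 TPM in replicate 2, 6.08-fold higher in replicate 1. In the other direction Igkv4-90 had 28 counts in replicate 1 and 524 in replicate 2, 21.8-fold higher in replicate 2 (14.9 to 33.2). Igkv4-79 had 3 counts in replicate 1 against 118 in replicate 2, for a ratio of 45.9 in favour of replicate 2 (15.3 to 226). Igkv1-99 had 0 counts in replicate 1 and 175 in replicate 2. With 3 counts put in place of the 0 it was 68.1-fold higher in replicate 2, and its 95% interval began at 54.8-fold. Igkv2-137, the segment farthest from Igkc, had 19.0 TPM in replicate 1 against 149 TPM in replicate 2, and Igkv9-120 had 8.31 TPM in replicate 1 and 75.8 TPM in replicate 2. These were 7.60-fold and 8.75-fold higher in replicate 2.

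Bounds were deposited with each TPM. Among the 51 members with a mean of at least 10 TPM, the width of the bounds averaged over both libraries was 4.96% to 54.5% of the mean TPM, with a median of 26.4%. By this average Igkv4-63, Igkv4-62 and Igkv3-2 had the widest. Within a library, members with few counts had wider bounds for their level, as in Igkv4-58, whose 0.96 TPM in replicate 2 had bounds of 0.222 to 2.51. Igkv4-63 had 16.2 TPM in replicate 1 (bounds 12.5 to 20.3) and 13.9 TPM in replicate 2 (bounds 9.91 to 18.4), which overlap. Igkv4-62 had 27.9 TPM in replicate 1 against 2.02 TPM in replicate 2, and Igkv3-2 had 16.5 TPM in replicate 1 and 4.67 TPM in replicate 2, with bounds that did not overlap. The sources used here do not say what probability the bounds stand for.

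By family, Igkv4 and Igkv6 led in both libraries. The 27 Igkv4 rows summed to 2828 TPM in replicate 1 and 3109 TPM in replicate 2, or 48.7% of the Igkv level in replicate 1 and 54.5% in replicate 2 (mean 51.6 ± 4.09, SD, n = 2). The 9 Igkv6 rows summed to 1439 TPM in replicate 1 and 1522 TPM in replicate 2, with Igkv6-23 alone at 67.0% of the family in replicate 1 and 73.7% in replicate 2. Within Igkv4 the sums hid opposite differences: of 20 tested rows, 7 were called higher in replicate 1 and 6 higher in replicate 2. Igkv4-59 and Igkv4-57 together made up 31.1% of the Igkv4 level in replicate 1 and 67.3% in replicate 2. Igkv4-72 and Igkv4-68 together made up 36.6% in replicate 1 and 5.97% in replicate 2.

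Igkv3, whose rows lie nearest to Igkc, had the largest ratio among the 6 families with the highest sums. Its 9 rows summed to 600 TPM in replicate 1 against 137 TPM in replicate 2, and its scaled count was 4.62-fold higher in replicate 1 (95% interval 4.276 to 5.002). Of 8 Igkv3 rows tested, 7 were called higher in replicate 1 and 0 higher in replicate 2. The exception, Igkv3-4, had 12.2 TPM in replicate 1 and 13.0 TPM in replicate 2; it is named here after its values were seen. All 4 tested Igkv12 rows were also called higher in replicate 1, with family sums of 79.0 TPM in replicate 1 and 23.8 TPM in replicate 2.

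The Igkv14 and Igkv16 families summed to 86.5 and 37.3 TPM in replicate 1, against 11.1 and 4.49 TPM in replicate 2. Igkv2 and Igkv9 lay the other way, at 0.344% and 0.143% of the Igkv TPM in replicate 1, against 2.62% and 1.38% in replicate 2, each carried by 1 row, Igkv2-137 and Igkv9-120. Igkv1 summed to 152 TPM in replicate 1 and 227 TPM in replicate 2, led by Igkv1-110 (66.1 TPM in replicate 1, 112 in replicate 2) and Igkv1-117 (51.0 TPM in replicate 1, 40.3 in replicate 2). Igkv10 summed to 235 TPM in replicate 1 and 170 TPM in replicate 2, with Igkv10-94 at 37.4 TPM in replicate 1, against 27.3 TPM in replicate 2, behind Igkv10-96. In Igkv8 the leader changed: Igkv8-30 had 78.0 TPM in replicate 1 and 16.1 TPM in replicate 2, whereas Igkv8-21 had 46.6 TPM in replicate 1 against 132 TPM in replicate 2, and both differences were called. No call was made among the 5 tested Igkv5 rows, which summed to 65.0 TPM in replicate 1 and 59.2 TPM in replicate 2. Each of the families Igkv17, Igkv15, Igkv18, Igkv19, Igkv13, Igkv11 and Igkv7 averaged under 16 TPM.

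**Figure D4:**
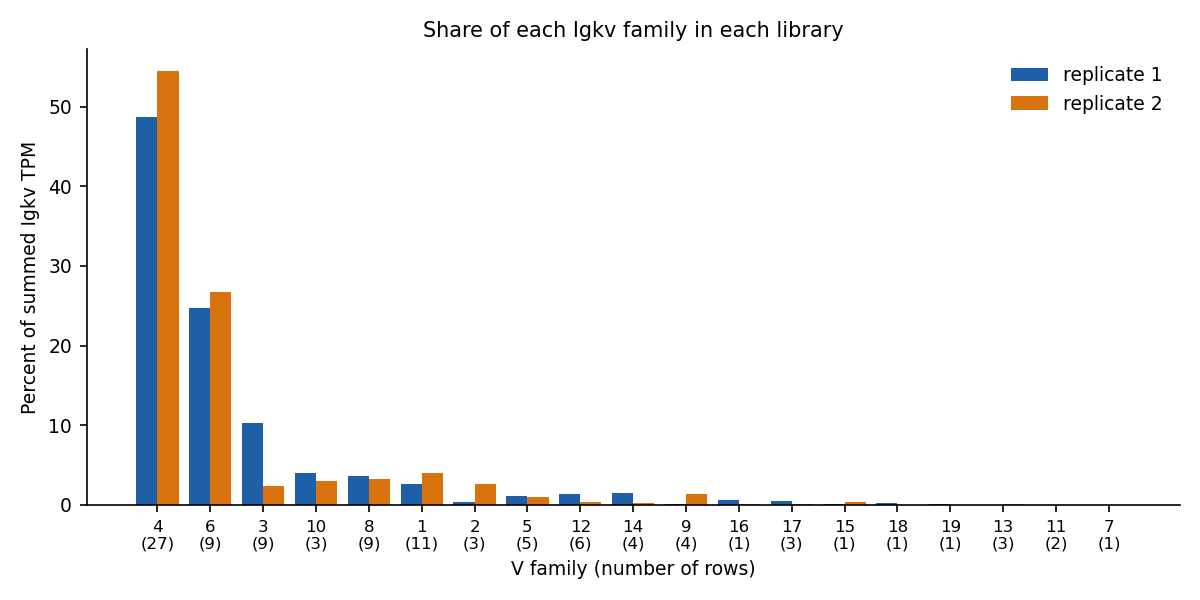
Percent of the summed Igkv TPM (y axis) held by each V family (x axis, with its number of rows below), replicate 1 in blue and replicate 2 in orange. Igkv4 holds 48.7% in replicate 1 and 54.5% in replicate 2, and Igkv3 holds 10.3% in replicate 1 and 2.40% in replicate 2.

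The rows span 3149 kb of mouse chromosome 6 (GRCm38), from 22.3 to 3170 kb from Igkc, which lies at chr6:70726435-70726966. The locus was split into 4 stretches of equal length. The nearest, with 32 rows, held 39.0% of the Igkv TPM in replicate 1 and 32.3% in replicate 2, and the next, with 25 rows of which 18 were Igkv4, held 50.6% in replicate 1 and 52.6% in replicate 2. The remaining stretches, with 24 and 22 rows, held 5.83% and 4.59% in replicate 1, against 7.47% and 7.57% in replicate 2. Of 22 tested rows in the nearest stretch, 15 were called higher in replicate 1 and 2 higher in replicate 2, and of 22 in the next stretch, 9 were higher in replicate 1 and 3 in replicate 2. In the third stretch replicate 1 was higher at 5 of 16 rows and replicate 2 at 7, and in the farthest, with 9 tested, replicate 1 was higher at 2 and replicate 2 at 3.

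Rows on the strand opposite to Igkc, of which there were 64, held 79.8% of the level in replicate 1 and 86.9% in replicate 2. The 39 rows on the strand of Igkc held 20.2% in replicate 1 and 13.1% in replicate 2. The leading Igkv4 rows and Igkv6-23 lie on the opposite strand, and all 9 Igkv3 rows lie on the strand of Igkc. Across the 103 rows the Spearman correlation of TPM with distance from Igkc was -0.35 in replicate 1 and -0.14 in replicate 2. With GC content, which ranged from 39.2% to 53.1%, it was 0.38 in replicate 1 and 0.23 in replicate 2. Neighbouring rows share family and sequence, so these are descriptions only.

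**Figure D5:**
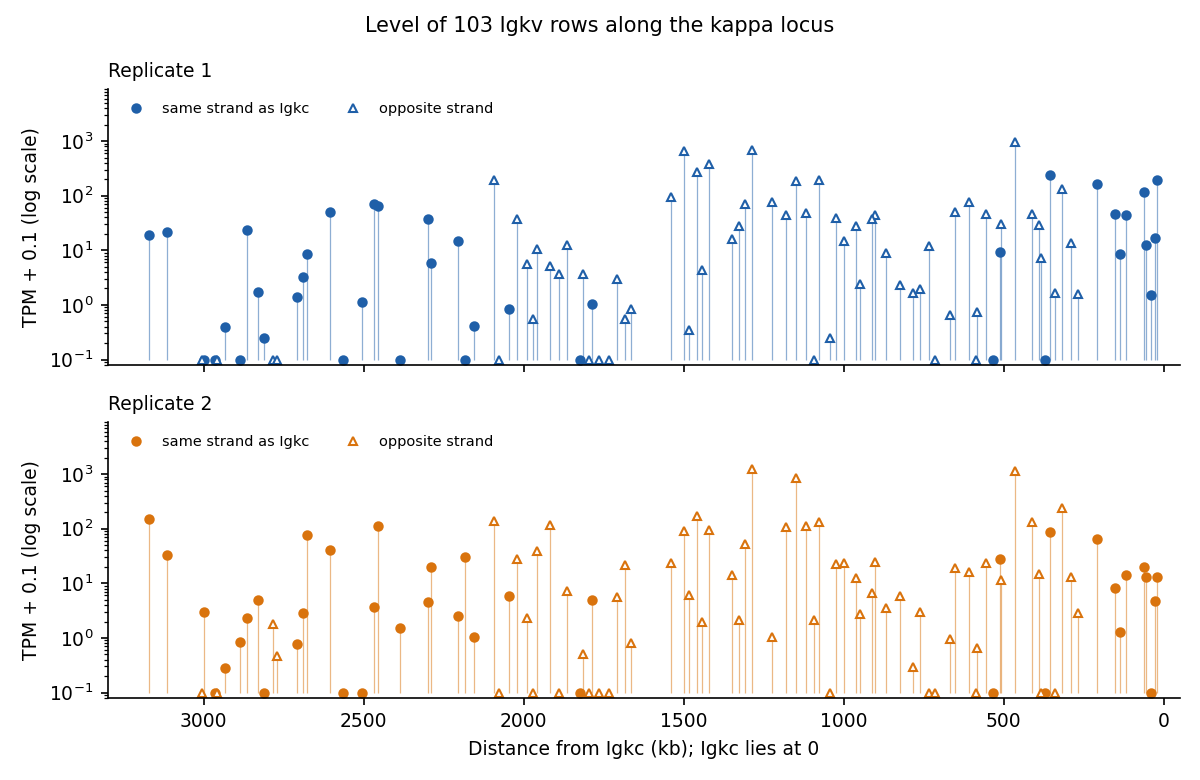
TPM + 0.1 (y axis, log scale) of the 103 Igkv rows against their distance from Igkc (x axis, kb), replicate 1 above replicate 2, with filled circles for rows on the strand of Igkc and open triangles for the opposite strand. The highest points, Igkv6-23 and Igkv4-59, are open triangles within 1288 kb of Igkc, and rows listed at 0 sit at 0.1.

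Similarity of the sequences was compared next. Coding sequences of the same family were 82.2% identical at the median (521 pairs), against 61.5% between families (4135 pairs). The closest pair was Igkv5-45 and Igkv5-43, with 5 differences in 347 aligned bases, all within the first 180, which are printed with the differences in capitals.
Igkv5-45: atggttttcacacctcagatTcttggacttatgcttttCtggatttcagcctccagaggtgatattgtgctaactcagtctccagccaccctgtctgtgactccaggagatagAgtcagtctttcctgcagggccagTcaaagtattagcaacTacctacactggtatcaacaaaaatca
Igkv5-43: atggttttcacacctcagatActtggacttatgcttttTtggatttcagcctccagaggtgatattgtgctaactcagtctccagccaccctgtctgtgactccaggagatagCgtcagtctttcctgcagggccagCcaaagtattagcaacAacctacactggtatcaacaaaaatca
Igkv5-45 had 2.35 TPM in replicate 1 and 2.64 TPM in replicate 2, while Igkv5-43 had 43.7 TPM in replicate 1 and 24.2 TPM in replicate 2. Reads from stretches that such rows share can be assigned to either, so the split within this pair carries some uncertainty. The posterior SD of the counts of each was 1.21 in replicate 1, on 15.25 counts for Igkv5-45 and 283.75 for Igkv5-43, and 0 in replicate 2. Igkv8-26 and Igkv8-18, 97.8% identical, both had 0 counts in both libraries. Igkv8-28 and Igkv8-19, 97.7% identical, had 0.63 and 7.11 TPM in replicate 1, and 0.55 and 0 TPM in replicate 2. Of 76-base stretches, the read length, 40 members shared none with another Igkv row, the median share was 4.15% and the highest 44.5%, in Igkv4-78. Igkv4-59 shared 44.0% of its stretches and Igkv6-23 14.7%, whereas Igkv4-72 shared 2.17% and Igkv3-1 and Igkv4-90 shared 0%. Rearranged genes in plasma cells also carry somatic mutations, and the sources used here do not say how reads with mismatches were assigned.

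Genes of antibody-secreting cells were compared as a list. Of 10 plasma cell genes, all tested, 0 were called in either direction. They summed to 987 TPM in replicate 1 and 819 TPM in replicate 2. Their median log2 ratio of replicate 1 over replicate 2 was -0.008. The joining chain of secreted antibody, Jchain, had 599 TPM in replicate 1 against 527 TPM in replicate 2, and Xbp1, a transcription factor of secretory cells, had 125 TPM in replicate 1 and 117 TPM in replicate 2. Sdc1, a surface proteoglycan that epithelial cells also carry, had 101.3 TPM in replicate 1 and 43.3 TPM in replicate 2. By scaled counts Fkbp11 was 1.74-fold and Derl3 1.42-fold higher in replicate 1. Tnfrsf17 and Mzb1 in replicate 1 were at 0.644 and 0.736 of their levels in replicate 2. By scaled counts all of these differences were under the 2-fold limit. Sdc1 was 1.26-fold higher in replicate 1 by scaled counts, a smaller difference than in TPM. Which cells the RNA of the listed genes came from was not tested. The constant region of immunoglobulin A, Igha, had 15723 TPM in replicate 1 and 16969 TPM in replicate 2. The lambda light chain, the alternative to kappa, had 4 of 11 listed genes with a row, and these summed to 122 TPM in replicate 1 and 128 TPM in replicate 2. None of the 3 tested lambda genes was called. Igkc exceeded Iglc2, the only lambda constant gene among those rows, by 138-fold in replicate 1 and 264-fold in replicate 2 in TPM. The Iglc2 row is 606 bases long and the Igkc row 323. The lambda V segment Iglv1 had 63.7 TPM in replicate 1 and 85.7 TPM in replicate 2, above Iglc2 in both. Listed lambda genes without a row could not be counted, so these are not ratios of all kappa to all lambda RNA.

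Genes of B cells that do not yet secrete antibody were higher in replicate 2. Of 8 tested B cell genes, 7 were called higher in replicate 2 and 0 higher in replicate 1. All listed B cell genes summed to 38.5 TPM in replicate 1 and 73.6 TPM in replicate 2. Most of both sums came from Cd79a, the tested gene that was not called, with 30.6 TPM in replicate 1 and 47.4 TPM in replicate 2. Pax5, a transcription factor of the B lineage, had 2 counts in replicate 1 and 106 in replicate 2. The heavy chain constant genes Ighd, Ighg2c and Ighg3 were called higher in replicate 2, and the other 4 of the 7 tested were not called. Levels of the called genes were low, at 0.16 to 0.63 TPM in replicate 1 and 1.60 to 2.77 TPM in replicate 2. Among those not called, Ighg1 was 1.98-fold higher in replicate 1 by scaled counts, while Ighm, Ighg2b and Igha were lower there. The part of the B cell and heavy chain constant genes in the Igkv differences was not tested. Rag1, Rag2, Dntt and Igll1, used by B cell precursors, had 0 counts in both libraries, and Vpreb1 had 57 counts in replicate 1 and 84 in replicate 2. Of 4 germinal centre genes tested, Mki67 was called higher in replicate 1 and Fas higher in replicate 2.

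The libraries also differed in genes of the exocrine pancreas, the stomach and Brunner's glands, which are glands of the duodenum itself. All 15 exocrine pancreas genes, all 8 stomach genes and both Brunner's gland genes were called higher in replicate 1. They summed to 88031, 12770 and 12156 TPM in replicate 1, against 1226, 63.2 and 26.8 TPM in replicate 2. Clps alone had 1083 TPM of the pancreas sum in replicate 2. The Brunner's gland genes were Tff2 and Muc6, and which tissue the RNA of any of these genes came from was not tested. Of 6 enterocyte genes, 1 was called higher in replicate 1 and 3 higher in replicate 2. The former was Alpi, with 7153 TPM in replicate 1 and 1568 TPM in replicate 2. The latter included the villus protein gene Vil1, with 131 TPM in replicate 1 and 394 TPM in replicate 2. The enterocyte genes summed to 9841 TPM in replicate 1 and 10113 TPM in replicate 2. The part of the differences in these lists in the Igkv results was not tested. With the pancreas, stomach and Brunner's gland genes left out of the library totals, 37 members were called higher in replicate 1 and 13 higher in replicate 2, and the shares of all genes were then 23.2% higher in replicate 1 and 6.81% higher in replicate 2.

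The heavy chain V segments (Ighv, 175 rows) had 27 of 68 tested rows higher in replicate 1 and 25 higher in replicate 2, or 76.5% in either direction against 66.7% for Igkv. Their effective number was 34.9 in replicate 1 and 15.7 in replicate 2, beside 24.5 in replicate 1 and 16.9 in replicate 2 for Igkv. The difference between heavy and kappa segments was not tested.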

How the data were processed

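RNA was sequenced as strand-specific pairs of 76-base reads from 2 libraries of 1 group, so no condition could be tested. Per the text files beside the tables, reads were set against mm10 and GENCODE M4. The sources used here do not name the aligner or quantifier. The deposited expected counts, per the file headers, share reads of several possible origins and are not normalised; they were rounded to whole numbers for tests. Deposited TPM and FPKM are levels that the authors scaled to length and depth, per the file headers. The deposited bounds on TPM and posterior SDs are scores used only as descriptions. Expected counts summed to 44977004 in replicate 1 and 45438504 in replicate 2, of which genes held 44272205 and 44710129.

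Library sizes were scaled by TMM (edgeR 4.0.16, R 4.3.3) over genes whose mean count reached 10. With no replicates inside a comparison, no dispersion can be estimated, so each gene was tested with an exact two-sided binomial test (scipy 1.17.1) and Benjamini-Hochberg adjustment over 15921 genes. The test was checked on simulated counts that held counting error only, so the check does not cover other spread between libraries. Ratio intervals are 95% and cover counting error only. Alternatives were DESeq2 1.42.0 size factors, total counts, ERCC spike-ins, other totals, posterior means, no filter, another prior and, chosen after seeing the data, TPM and counts per annotated length.

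Names, positions and sequences came from GENCODE M21 (GRCm38) by gene identifier, which named 42462 of 43346 rows. For 89 of 103 members the row and the M21 sequence had the same length. Promoter octamers and recombination signals were not analysed here. Members named with values were the 12 with the highest mean TPM, the 2 leaders of each of the 6 highest families, the 3 leading pseudogenes, the 5 calls in each direction with the largest log2 ratio on CPM + 0.5, the 3 with the widest relative TPM bounds and the 3 most identical pairs. The members, lists and rule were chosen with earlier results of these data known. The values of 1 listed comparison gene are not reported here. Transcript tables and the mm9 junction and contig lists were not used.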

Additional observations from a re-analysis of the deposited data

How the results depend on the processing

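Members called higher in replicate 1 numbered 29 to 37, against 31 as reported, and those higher in replicate 2 numbered 13 to 19, against 15. Over the same alternatives the share of all genes called higher in replicate 1 lay between 13.2% and 23.2%, and the share higher in replicate 2 between 6.81% and 12.9%. The share of calls that were higher in replicate 1 lay between 64.8% and 74.0%, against 67.4%. Total gene counts and ERCC totals moved the median log2 ratio of all genes to 0.24, from 0.04 under TMM, and leaving pancreas, stomach and Brunner's gland genes out of the totals moved it to 0.34. The median of the members was 0.81 with total gene counts, 0.82 with ERCC totals and 0.90 without those genes, against 0.63 as reported. Without a filter on low counts, 90 members entered and the median fell to 0.27. The 19 named genes that were called kept call and direction in all 171 pairs of a gene and an alternative. The 12 that were not called gained a call in 7 of 108 pairs (Igkv4-53, Igkv5-43 and Igkv4-70, all toward replicate 1). The sign turned in 6 of the 108, for Igkv5-45 and Igkv6-23, whose log2 ratio was -0.15 as reported, 0.09 with total gene counts and 0.20 without the pancreas, stomach and Brunner's gland genes. The pseudogene share, 0.0123% of TPM on average, was 0.0304% with posterior means. Replaced units gave other sums by construction: 5132 in FPKM, 765 in expected counts as CPM and 3228 in counts per annotated length. Members with at least 1 TPM in both libraries numbered 54 to 63 by other measures, and 70 or 71 in 1 library alone. Leaving out a library leaves no comparison, so no call could be refitted that way. No member had all its 76-base stretches shared, so that exclusion removed none. No paired analysis was possible because the labels give 1 group. Members with a mean count under 10 were not tested as reported, since depth limits what their counts can show.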
